A study of Mus musculus with 57 samples.

Results

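The comparison is between mouse pancreas 24 hours and 12 hours into caerulein pancreatitis, taken as the 6 regions labelled CIP_24hr and the 6 labelled CIP_12hr, which makes 12 of the 57 regions of the series. The study profiled formalin-fixed pancreas of C57BL/6 mice with the GeoMx Whole Transcriptome Atlas, in which barcoded probes bind RNA in a section, light frees the barcodes of a chosen square, and the barcodes are counted by sequencing. Both groups came from mice aged 8 to 9 weeks that received hourly intraperitoneal caerulein for 8 hours a day over 2 days in a row. No mutant allele or second agent is named in the labels, and the untreated control regions are used here only as a level to set the values against. Each square measured 650 µm on a side, and each time point had 3 regions on either of 2 tissue arrays. The sources used here do not give the event from which the hours run or the hour of day at which tissue was taken. The labels name no animal for a region. They give 2 to 4 regions for each tissue sample, so the 3 regions that a group has on an array may come from a single core. These 3 were therefore added, and the test compared 2 sums at 24 hours with 2 sums at 12 hours. P-values measure the spread between such sums, pooled over the 10 groups of the series.

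Caerulein is an analogue of cholecystokinin, and in excess it makes the acinar cells, which store digestive enzymes, activate those enzymes inside the cell. Injured acinar cells lose enzyme transcripts and take on duct-like features, macrophages enter and clear debris, and fibroblasts lay down collagen before the gland heals.

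Target counts per region ran from 1121700 to 2545910 at 24 hours and from 1347120 to 2946140 at 12 hours. Levels are given as CPM, counts in 1000000 counts of the tested genes after scaling of the libraries by TMM (trimmed mean of M values). Probes with no target, which measure background, stood at 57.7 ± 4.12 CPM at 24 hours and 58.4 ± 2.46 CPM at 12 hours (SD, n = 6 regions each), against 77.4 ± 3.32 CPM in the control regions (SD, n = 7). A given CPM is thus farther above background at 24 and 12 hours than in control. A count includes background, so a difference on the log2 scale understates the change of a gene near it. A pair of regions stood apart from the rest. The 12-hour replicate 1 on array 1 held islet transcripts, with Ins2 at 278 times background against a median of 3.52 times over the 6 regions. The 24-hour replicate 4 on array 2 was high in macrophage and stromal genes. It had 2679 targets above 2 times background, beside 1330 to 1886 in the other 24-hour regions. The mean over 10 acinar proteases was 35.2 to 115 times background at 24 hours and 119 to 166 times at 12 hours. Ctrb1 weighed heavily in it, with a median of 587 and 1124 times in that order. At either time 8 of the 10 were above 2 times background in most regions. Results that rest on either region that stood apart are given with and without it.

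In this fit 29 of 2688 tested genes differed between 24 and 12 hours at an adjusted p under 0.05, or 1.08% of those tested (edgeR quasi-likelihood test, Benjamini-Hochberg adjustment). Of these, 21 rose (0.781% of those tested) and 8 fell (0.298%). The rises were led by Zbtb16, Cilp, Dcn, Stmn1 and Tsc22d3 in order of p, and by Apoe and Col1a2 in order of size. Apart from 3 islet hormone genes, the falls were those of Serpinb1a, Hmga1, Dbi, Itprid2 and Adamts9. In the same fit 42.3% of genes were called between 24 hours and control, 42.9% between 12 hours and control, 0.781% between 12 and 3 hours and 17.6% between 48 and 24 hours. All 29 had the same sign on both arrays, and for 18 of the 21 rises the difference was larger on array 2.

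**Figure D1:**
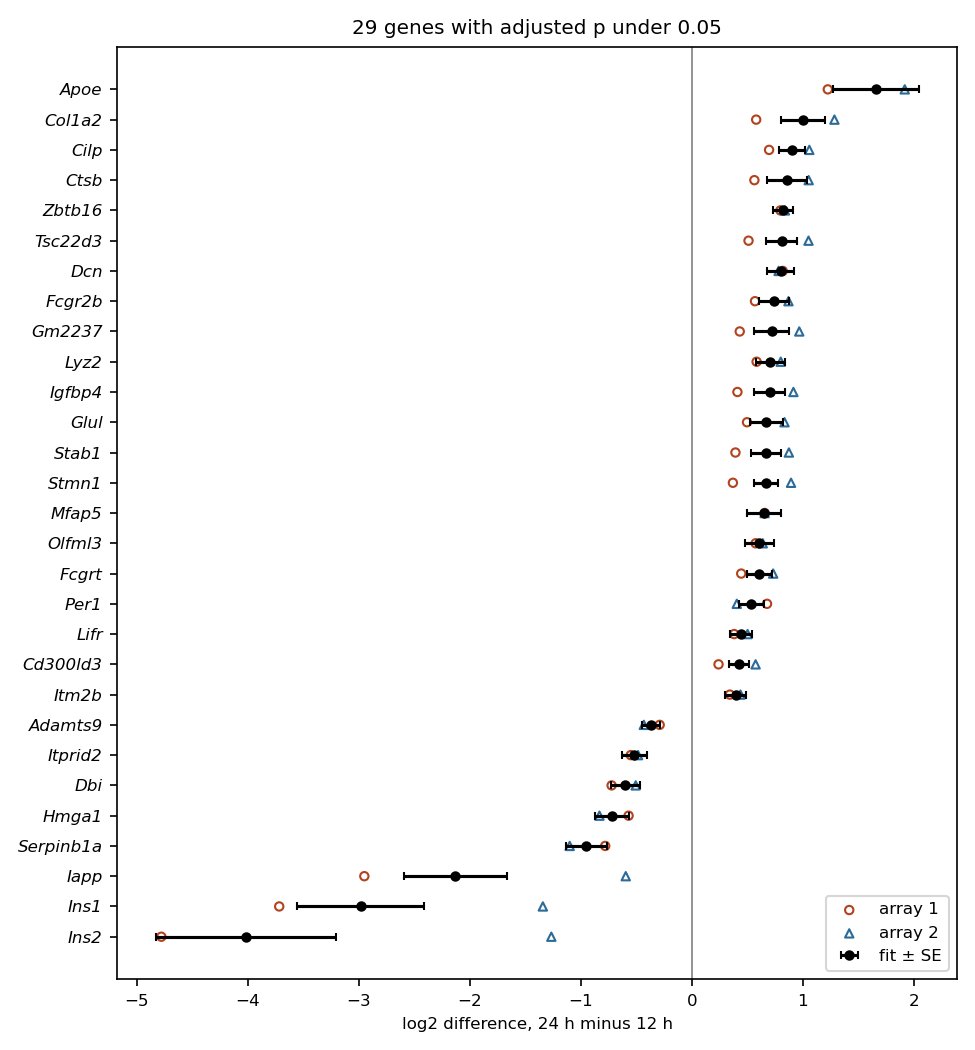
Log2 difference (24 hours minus 12 hours, horizontal axis) of the 29 genes that passed the test, one gene a line. Filled points with bars are the fit ± SE, open circles the difference on array 1 and open triangles that on array 2. Ins1, Ins2 and Iapp lie far lower on array 1, which holds the 12-hour region with islet transcripts, than on array 2.

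Most of these genes were faint. The median region stood between 1.87 and 14.2 times background at 24 hours for the 21 genes that rose, and between 1.20 and 6.32 times at 12 hours. In 14 of the 21 the 12-hour median was under 2 times background. A gene this faint could enter the test through its 24-hour regions, which favours rises among the genes tested. Fcgr2b had a 24-hour median of 2.20 times background, while its highest 12-hour and control regions were at 1.77 and 1.57 times. With no filter, 20 of 9780 genes rose and 8 fell, and 23 of these 28 were among the 29. The groups of regions did not overlap for 14 of the 21 rises and for 4 of the 8 falls. Over all tested genes, 1.41% had every 24-hour region above every 12-hour region and 0.93% had every one below, 2.34% together, and regions that come from one core would not be independent. The number of calls also rested on single sums: it was 5 when the 24-hour sum of array 2 was left out and 70 when that of array 1 was. Leaving out the 12-hour sum gave 7 for array 2 and 19 for array 1. Of the 29 genes, 13 moved by over 1.5 times when one of these sums was left out, with no change of sign, and 22 of 38 list medians changed sign. Of 47 uncalled genes followed the same way, 39 moved by over 1.5 times and 0 changed sign. Zbtb16 and Cilp were called whichever of these 4 sums was left out, and Per1 lost its call under each (adjusted p up to 0.177).

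Leaving out a region keeps the rest of its sum, so it is a milder omission than that of a whole sum. When each of the 12 regions was left out in turn, 14 of the 29 genes were called every time. These were Zbtb16, Cilp, Dcn, Stmn1, Tsc22d3, Fcgr2b, Lyz2, Igfbp4, Col1a2, Stab1, Per1 and Olfml3 among the rises, and Serpinb1a and Itprid2 among the falls. Dbi and Hmga1 lost their calls without the 24-hour replicate 5 (adjusted p = 0.084 for each), and Gm2237 without the 12-hour replicate 4 (adjusted p = 0.0558). Glul lost its call in 3 of the omissions (adjusted p up to 0.0587), Lifr in 4 (up to 0.189, without the 24-hour replicate 5), Adamts9 in 4 (up to 0.0882), Mfap5 in 6 (up to 0.0878), and Apoe and Itm2b in 8 each (up to 0.0912 and 0.205). Ctsb and Fcgrt lost theirs in 1 omission, Ins1, Ins2 and Iapp in 2 and Cd300ld3 in 4. Their values without the region that stands apart are given beside each gene.

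Zbtb16 had the smallest p of all genes. It encodes PLZF, a zinc finger repressor of transcription, and its probe lies on chromosome 9 at 48832804 to 48832841 (GRCm38.p6, as the probe file gives it). Its level was 136 and 143 CPM in the sums at 24 hours and 78.0 and 80.0 CPM in those at 12 hours, arrays 1 and 2 in that order. The 24-hour regions ran from 123 to 154 CPM with a median of 136, and the 12-hour regions from 66.7 to 92.9 CPM with a median of 77.5. All 24-hour regions were above all 12-hour regions, and the arrays gave nearly the same size. The log2 difference was 0.82 ± 0.09 (SE, adjusted p = 8.0e-05). At 24 hours Zbtb16 stood at 2.38 ± 0.22 times background and at 12 hours at 1.32 ± 0.12 times (SD, n = 6 regions each). Against the shared control sums, its log2 difference was 0.35 at 24 hours (adjusted p = 0.0043) and -0.47 at 12 hours (adjusted p = 0.00087). Relative to background there was no such fall: control regions stood at 1.32 ± 0.19 times (SD, n = 7), as the 12-hour regions did. It was above 12 hours at each later time too, between 119 and 152 CPM over all sums from 48 hours to 30 days. Background was higher in those later sums as well, at 64.3 to 81.0 CPM beside 59.2 and 59.7 CPM at 12 hours.

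Tsc22d3, Per1 and Glul rose as well. Tsc22d3 encodes GILZ, a leucine zipper protein that restrains inflammatory transcription. It was at 107 and 144 CPM in the sums at 24 hours and 75.3 and 69.6 CPM at 12 hours, a log2 difference of 0.81 ± 0.14 (SE, adjusted p = 0.00956). Its regions did not overlap: the lowest at 24 hours was 88.9 CPM and the highest at 12 hours 77.4 CPM. Glul encodes glutamine synthetase, which makes glutamine from glutamate and ammonia. Its sums were 176 and 193 CPM at 24 hours and 125 and 108 CPM at 12 hours, a log2 difference of 0.67 ± 0.15 (SE, adjusted p = 0.035). Its regions were apart too, from 154 CPM upward at 24 hours and up to 138 CPM at 12 hours. Over the omission of each sum the difference lay between 0.61 and 0.98 for Tsc22d3 and between 0.46 and 0.87 for Glul.

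Per1 is a repressor in the feedback loop of the circadian clock. Its promoter is shown because it carries the E-box that the clock activators CLOCK and BMAL1 are known to bind. The sequence is RefSeq's, build GRCm38.p6, from chr11:69098699-69098998 on the plus strand, 250 bases before to 50 after the gene's start, with the E-box (CACGTG, which reads the same on both strands) in capitals.
Per1: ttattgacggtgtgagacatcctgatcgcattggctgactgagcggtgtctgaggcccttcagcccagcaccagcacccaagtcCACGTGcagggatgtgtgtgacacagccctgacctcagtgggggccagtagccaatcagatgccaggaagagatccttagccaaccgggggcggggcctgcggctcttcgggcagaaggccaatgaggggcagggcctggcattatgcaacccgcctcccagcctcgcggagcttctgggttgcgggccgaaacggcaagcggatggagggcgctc
The motif occurs in 7.15% of 32851 promoter windows of that length. Of the called genes, 21 have such windows, 29 windows in all, and the motif occurs in 2 of these, those of Per1 and Itprid2. The match is a description of the letters in the window.

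Per1 was at 160 and 153 CPM in the sums at 24 hours and at 100 and 116 CPM in those at 12 hours. All 24-hour regions (145 to 172 CPM, median 152) lay above all 12-hour regions (93.6 to 119 CPM, median 106). The log2 difference was 0.54 ± 0.11 (SE, adjusted p = 0.028), and it was larger on array 1 (0.68) than on array 2 (0.41). Of the 5 clock genes tested, Per1 alone passed. All 5 had a difference above 0, as did 1330 of all 2688 genes, and the median was 0.17 against -0.00 over all genes. Per2, another repressor of the loop, had a log2 difference of 0.27 ± 0.12 (SE, adjusted p = 0.524), with 150 and 159 CPM at 24 hours and 130 and 127 CPM at 12 hours. Per3, Nr1d2 and Bhlhe40 had log2 differences of 0.17, 0.08 and 0.03. The labels set the groups 12 hours apart and the hour of day is not given. Hour of day and time in pancreatitis therefore cannot be told apart for these genes.

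Zbtb16, Tsc22d3, Per1 and Glul are each known, as background, to respond to glucocorticoids in other tissues. A list of 16 such genes was put together only after their values had been seen, so nothing is read from its count. Of its 10 tested members these 4, already seen to have risen, were called higher, beside 0.781% of all genes, and 6 did not pass. Fkbp5, a co-chaperone of steroid receptors, had a log2 difference of 0.42 ± 0.12 (SE, adjusted p = 0.128). The metallothioneins Mt1 and Mt2, which bind zinc and copper, had differences of the other sign, -0.47 ± 0.35 and -0.51 ± 0.37 (SE, adjusted p = 0.864 and 0.857).

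Several of the other called genes have known roles in connective tissue, and they are described together for that reason only. Dcn and Col1a2 belong to the list of fibroblast and matrix genes, while Cilp, Mfap5, Olfml3 and Igfbp4 belong to no list and were placed here after their calls were seen. Cilp, a protein of the extracellular matrix, Dcn (decorin), a proteoglycan that binds collagen, Col1a2, a chain of type I collagen, and Mfap5, a protein of elastic microfibrils, all rose. So did Olfml3, a secreted matrix protein, and Igfbp4, which binds insulin-like growth factors. More cells of a type and more RNA per cell cannot be told apart in such regions, which hold many cell types.

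Cilp was at 175 and 251 CPM in the sums at 24 hours and at 108 and 120 CPM in those at 12 hours, with a log2 difference of 0.90 ± 0.12 (SE, adjusted p = 0.000593). Its 24-hour regions ran from 161 to 267 CPM (median 201) and its 12-hour regions from 94.1 to 130 CPM (median 115), with no overlap. Against the shared control sums its log2 difference was 1.02 at 24 hours (adjusted p = 9.2e-06) and 0.12 at 12 hours (adjusted p = 0.44). Relative to background, Cilp stood at 1.93 ± 0.31 times at 12 hours and 1.33 ± 0.15 times in control (SD, n = 6 and 7 regions). Dcn gave 168 CPM in both sums at 24 hours and 94.9 and 97.7 CPM at 12 hours, a log2 difference of 0.80 ± 0.12 (SE, adjusted p = 0.0034). Every 24-hour region (126 to 184 CPM) was above every 12-hour region (82.2 to 113 CPM).

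Col1a2 had the largest rise of the group and also the widest spread between arrays. The sums at 24 hours were 230 CPM on array 1 and 487 CPM on array 2, and those at 12 hours were 154 and 200 CPM. The log2 difference was 1.00 ± 0.20 (SE, adjusted p = 0.0236), at 0.58 on array 1 and 1.29 on array 2. Its 24-hour regions, from 205 to 606 CPM with a median of 273, lay just above its 12-hour regions, from 146 to 202 CPM with a median of 172. Without the 24-hour sum of array 2 it was 0.45 (adjusted p = 0.45).

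The promoter of Col1a2 is shown for the CCAAT box, a motif that the general factor NF-Y binds and that type I collagen promoters are known to use. The RefSeq sequence (GRCm38.p6, chr6:4505368-4505667, plus strand, 250 bases before to 50 after the start) has 2 matches, in capitals, the second on the opposite strand where CCAAT reads ATTGG.
Col1a2: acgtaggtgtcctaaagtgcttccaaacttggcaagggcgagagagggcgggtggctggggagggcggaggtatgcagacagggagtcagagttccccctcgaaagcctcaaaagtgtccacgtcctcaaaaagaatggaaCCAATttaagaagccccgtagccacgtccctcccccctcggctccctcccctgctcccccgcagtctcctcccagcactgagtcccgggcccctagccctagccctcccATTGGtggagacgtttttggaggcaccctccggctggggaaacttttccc
CCAAT, searched on both strands, occurs in 37.4% of the 32851 windows and in 11 of the 29 windows of called genes, which belong to 9 of the 21 genes.

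Igfbp4, Olfml3 and Mfap5 rose by less than Col1a2 and Cilp. Igfbp4 was at 186 and 291 CPM in the sums at 24 hours and at 140 and 155 CPM at 12 hours (log2 difference 0.70 ± 0.14, SE, adjusted p = 0.0236), and the difference was 0.39 without the 24-hour sum of array 2 (adjusted p = 0.471). Olfml3 had 131 and 182 CPM at 24 hours and 88.1 and 117 CPM at 12 hours, and its regions overlapped (0.61 ± 0.13, SE, adjusted p = 0.028, and 0.38 with adjusted p = 0.545 without that sum). Mfap5 had 105 and 144 CPM at 24 hours and 66.4 and 91.3 CPM at 12 hours, with regions that did not overlap (0.65 ± 0.15, SE, adjusted p = 0.0483). Mfap5 lost its call without the 24-hour replicate 4 (adjusted p = 0.085).

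**Figure D2:**
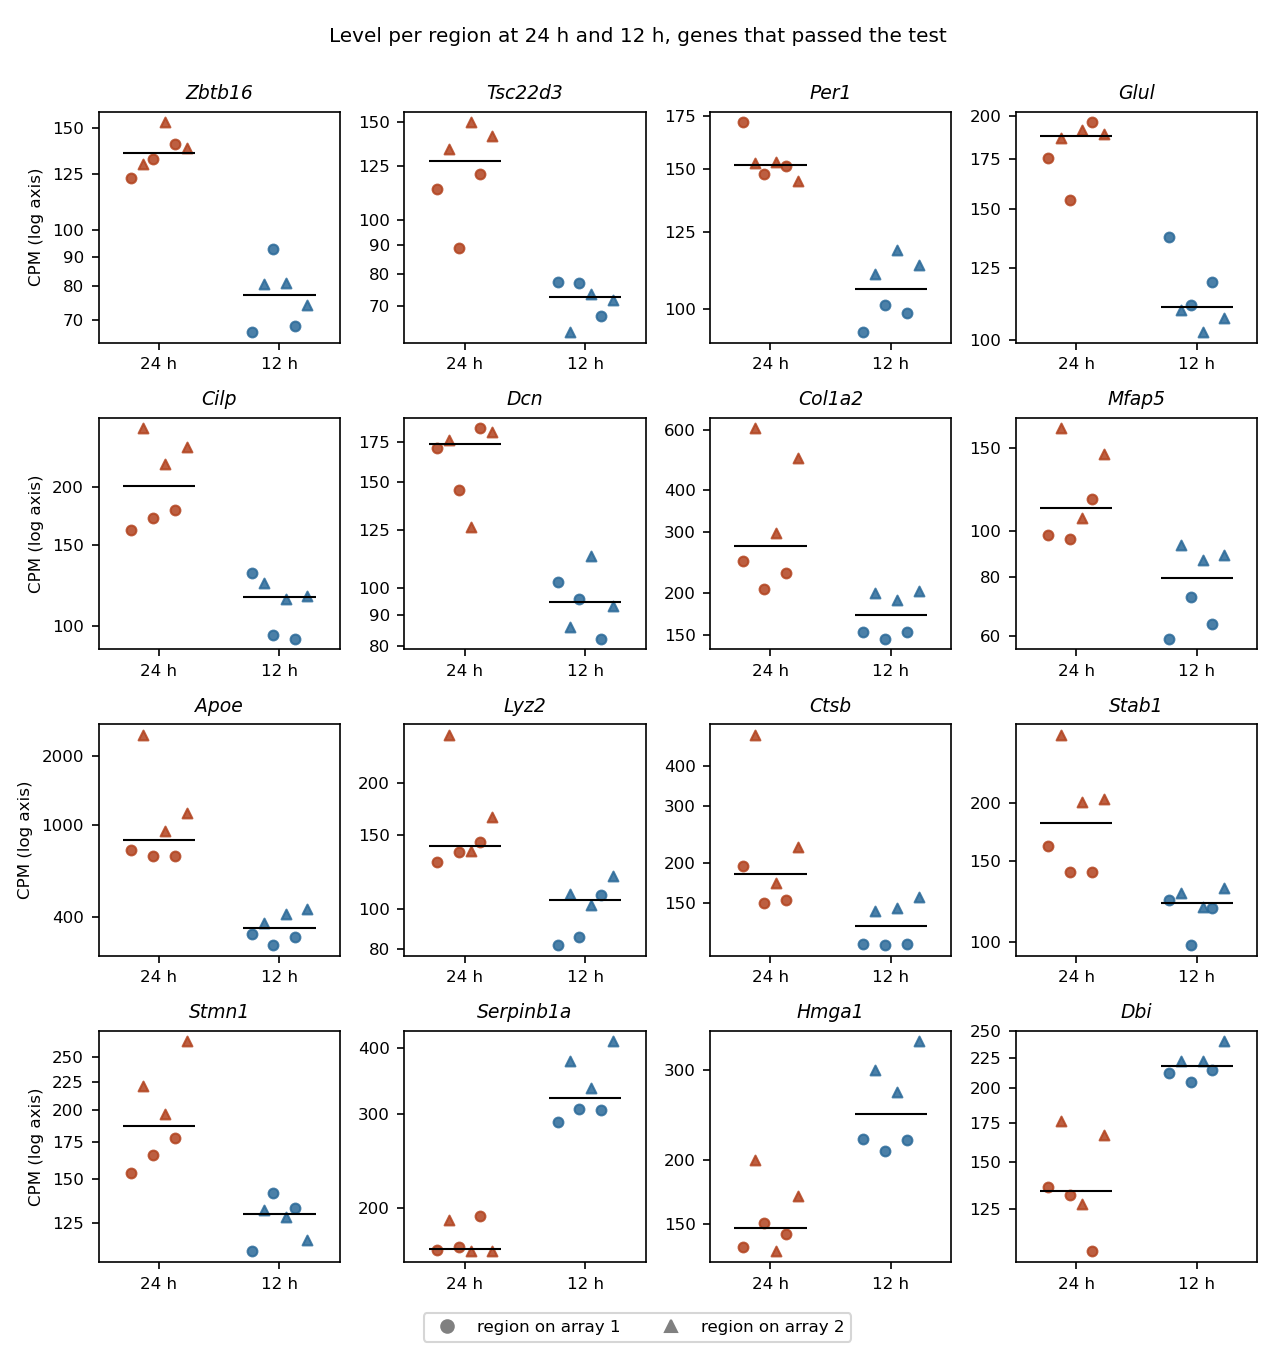
Level of 16 genes that passed the test in each region, as CPM on a log axis, with the 6 regions at 24 hours on the left and the 6 at 12 hours on the right of each panel. Circles are regions on array 1, triangles regions on array 2 and bars group medians. For Apoe and Ctsb the highest 24-hour point is replicate 4, at 2462 and 501 CPM.

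The wider list of fibroblast and matrix genes pointed the same way as Dcn and Col1a2, its 2 members that passed. Of 26 tested, 22 had a difference above 0, and the median was 0.40 against -0.00 over all 2688 genes. At an unadjusted p under 0.05, 16 of the 26 were higher and 1 was lower, beside 4.95% and 3.24% of all genes (8.18% in either direction). The median stayed between 0.38 and 0.72 under the other scalings and after background subtraction, and was 0.37 without the 24-hour replicate 4. It was 0.20 without the 24-hour sum of array 2, and 0.40 to 0.57 when another sum was left out. Several collagen-related members, singled out after their values were seen, did not pass. DESeq2, another test of the same sums, called 6 of the 26 as higher, Sparc among them, beside 33 of all 2688 genes. Col1a1, the other chain of type I collagen, was at 808 and 1687 CPM in the sums at 24 hours and at 471 and 710 CPM at 12 hours (log2 difference 1.07 ± 0.35, SE, adjusted p = 0.246). Postn (periostin), a protein of remodelling matrix, was at 291 and 749 CPM at 24 hours and at 182 and 278 CPM at 12 hours (1.16 ± 0.28, SE, adjusted p = 0.0604). Sparc, a collagen-binding protein, was at 385 and 648 CPM at 24 hours and at 252 and 305 CPM at 12 hours (0.89 ± 0.23, SE, adjusted p = 0.0801), and its 12 regions did not overlap. Col3a1, type III collagen, had 594 and 1137 CPM at 24 hours and 383 and 596 CPM at 12 hours (0.82 ± 0.28, SE, adjusted p = 0.27). Serpinh1, the collagen chaperone, had 0.78 ± 0.19 (SE, adjusted p = 0.0538). These uncalled values leaned on the 24-hour sum of array 2: without it the differences were 0.46 for Col1a1, 0.33 for Postn, 0.46 for Sparc, 0.28 for Col3a1 and 0.21 for Serpinh1. Not every member leaned up: Timp1, an inhibitor of matrix metalloproteinases, had a log2 difference of -0.44, and the basement membrane collagens Col4a1 and Col4a2 had -0.04 and -0.01.

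Apoe and Lyz2 are members of the macrophage list and Ctsb of the lysosome list. Stab1, Fcgr2b, Fcgrt, Cd300ld3 and Itm2b belong to neither and are set beside them only for what they are known to do. Apoe, a lipid carrier that macrophages secrete, Lyz2, the lysozyme of myeloid cells, Stab1, a scavenger receptor, and Fcgr2b, the inhibitory receptor for IgG, rose. Fcgrt, which recycles IgG, Ctsb, a lysosomal cysteine protease that can activate trypsinogen, Itm2b, a membrane protein, and Cd300ld3, a myeloid surface receptor, rose too. The probe of Cd300ld3 matches 3 genes, so its count cannot be assigned to 1 of them. Over the 25 macrophage markers measured, Apoe and Lyz2 included, the mean was 2.18 to 5.46 times background at 24 hours and 1.66 to 2.15 times at 12 hours. The 24-hour replicate 4 gave the 5.46, and the highest of the other 24-hour regions 2.88. Without Apoe and Lyz2 the mean of the other 23 was 1.73 to 3.58 times at 24 hours (up to 2.12 without replicate 4) and 1.52 to 1.92 times at 12 hours, so the groups overlapped, and 16 of the 23 had a higher median region at 24 hours. Of the 25, 9 were above 2 times background in most regions at 24 hours and 6 at 12 hours. Their part in the rises was not tested.

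Apoe showed the largest rise of all genes called. Its sums were 771 and 1551 CPM at 24 hours and 330 and 410 CPM at 12 hours, a log2 difference of 1.66 ± 0.39 (SE, adjusted p = 0.0482). The 24-hour regions ran from 736 to 2462 CPM (median 862) and the 12-hour regions from 303 to 432 CPM (median 360), with a wide gap between them. The highest value belonged to replicate 4, and without that region the difference was 1.32 (adjusted p = 0.091). Without the 24-hour sum of array 2 it was 0.94 (adjusted p = 0.54). In control tissue Apoe stood at 1.06 times background, and the difference from control was 3.85 at 24 hours (adjusted p = 8.6e-06) and 2.19 at 12 hours (adjusted p = 0.00082).

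Ctsb and Fcgrt depended on replicate 4 more strongly. Ctsb was at 168 and 308 CPM in the sums at 24 hours and at 114 and 148 CPM at 12 hours (log2 difference 0.86 ± 0.18, SE, adjusted p = 0.028). Without replicate 4 it was 0.51 (adjusted p = 0.12), and without the whole 24-hour sum of array 2 it was 0.38 (adjusted p = 0.61). Fcgrt had 119 and 176 CPM at 24 hours and 87.5 and 106 CPM at 12 hours (0.61 ± 0.12, SE, adjusted p = 0.0186), and 0.39 without replicate 4 (adjusted p = 0.16). Cd300ld3 fell short without that region too, at 0.28 in place of 0.43 (adjusted p = 0.19), as did Itm2b, at 0.29 in place of 0.40 (adjusted p = 0.2). For these 4 genes the remaining 24-hour regions still had a higher fitted level than the 12-hour regions, but the difference did not pass.

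Lyz2, Fcgr2b and Stab1 passed without replicate 4. Lyz2 was at 140 and 194 CPM in the sums at 24 hours and at 93.6 and 111 CPM at 12 hours (0.71 ± 0.13, SE, adjusted p = 0.0163), and its regions did not overlap. Fcgr2b was at 121 and 172 CPM at 24 hours and at 81.7 and 93.8 CPM at 12 hours (0.74 ± 0.13, SE, adjusted p = 0.016), and the groups of regions overlapped. Stab1 was at 151 and 234 CPM at 24 hours and at 115 and 128 CPM at 12 hours (0.67 ± 0.14, SE, adjusted p = 0.0246), again without overlap. When both regions that stand apart were left out, Lyz2 had a difference of 0.50 (adjusted p = 0.068), while Fcgr2b and Stab1 kept their calls. Without the 24-hour sum of array 2 the differences were 0.52 for Lyz2, 0.45 for Fcgr2b and 0.40 for Stab1 (adjusted p = 0.345, 0.39 and 0.527), and each of the 3 lost its call in 3 of the 4 omissions of a sum.

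Of the 13 macrophage genes tested, Apoe and Lyz2 passed, both higher, beside 0.781% of all genes. The median difference was 0.42, 0.24 without the 24-hour replicate 4 and 0.094 without the 24-hour sum of array 2, against -0.00 over all genes. At an unadjusted p under 0.05, 10 were higher and 2 were lower, beside 4.95% and 3.24% of all genes. DESeq2 called 4 of the 13 higher and 1 lower, beside 33 and 14 of all 2688 genes. The complement genes C1qa and C1qb and the growth factor receptor Csf1r, all expressed by resident-type macrophages, had log2 differences of 0.49, 0.62 and 0.47 (adjusted p = 0.0993, 0.0913 and 0.0828). Without the 24-hour replicate 4 these were 0.26, 0.30 and 0.33 (adjusted p = 0.319, 0.395 and 0.269), while omitting the 24-hour sum of array 2 gave 0.11, 0.19 and 0.28. The 2 lower members are known from activated macrophages, and Lgals3 (galectin-3) also from other injured cells. Lgals3 was at 111 CPM in both sums at 24 hours and at 145 and 153 CPM at 12 hours (-0.42 ± 0.11, SE, adjusted p = 0.0964). Arg1, the arginase of alternatively activated macrophages, was at 81.8 and 88.6 CPM at 24 hours and at 95.9 and 123 CPM at 12 hours (-0.37 ± 0.15, SE, adjusted p = 0.429). Without replicate 4, Lgals3 passed as lower at -0.52 (adjusted p = 0.039), and DESeq2 called it lower with all regions.

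Other immune cells gave little signal. Of the 2 T and natural killer cell markers and the 4 B and plasma cell markers measured, 0 passed the criterion for testing. Of 4 neutrophil markers tested 0 passed, with a median of 0.01. In the lysosome and autophagy list, 29 were tested, Ctsb alone passed, and the median was 0.14 (0.03 without replicate 4, and -0.07 without the 24-hour sum of array 2). Within it the cathepsins differed in sign: Ctsc, which activates serine proteases, had a difference of 0.41 ± 0.12 (SE, adjusted p = 0.165), and Ctsl, which can degrade trypsinogen, -0.62 ± 0.21 (SE, adjusted p = 0.267). Ctsl was at 523 and 499 CPM in the sums at 24 hours and at 765 and 807 CPM at 12 hours, with no overlap of regions. Of the endothelial list 2 were tested and 0 passed: Ly6c1 and Eng had differences of 0.33 and 0.27 (adjusted p = 0.343 and 0.588). The probe of Ly6c1 also matches Ly6c2, Ly6a and Ly6a2, of which Ly6c2 is known from monocytes, so its count is not that of an endothelial gene alone.

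The remaining 3 genes that rose have roles outside these groups. Stmn1 (stathmin), which destabilises microtubules and is abundant in dividing cells, was at 170 and 237 CPM in the sums at 24 hours and at 132 and 128 CPM at 12 hours. Its log2 difference was 0.67 ± 0.11 (SE, adjusted p = 0.00909), and the regions did not overlap, from 154 CPM upward at 24 hours and up to 142 CPM at 12 hours. It was 0.37 on array 1 and 0.89 on array 2. Left to the array 1 sum alone at 24 hours, it was 0.38 (adjusted p = 0.27). Lifr, the receptor of leukaemia inhibitory factor, rose by less: 132 and 129 CPM at 24 hours and 101 and 91.3 CPM at 12 hours (0.45 ± 0.10, SE, adjusted p = 0.035, and 0.30 with adjusted p = 0.631 without the 12-hour sum of array 2). Gm2237 gave 115 and 117 CPM at 24 hours and 85.1 and 59.8 CPM at 12 hours (0.72 ± 0.16, SE, adjusted p = 0.0314), but its probe matches 22 genes.

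Stmn1 was the one member of 13 tested cell cycle and DNA replication genes to pass, and the median of that list was 0.02. Histone genes transcribed with DNA replication leaned the same way as Stmn1 without passing. All 10 tested had a difference above 0, with a median of 0.41. Of them 5 were higher at an unadjusted p under 0.05, beside 4.95% of all genes. DESeq2 called 1, H1f2, as higher, beside 33 of all 2688 genes. On array 1 alone the histone median was 0.12, and without the 24-hour sum of array 2 it was 0.11. H1f2, a linker histone, was at 141 and 164 CPM in the sums at 24 hours and at 125 and 107 CPM at 12 hours (0.41 ± 0.11, SE, adjusted p = 0.0964). The probe of H2ac10, a core histone, matches 11 H2A genes, and it was at 409 and 630 CPM at 24 hours and at 360 and 370 CPM at 12 hours (0.50 ± 0.18, SE, adjusted p = 0.328). The probe file gives more than 1 gene for 6 of the 10 histone probes, so those counts cannot be assigned to 1 gene, while that of H1f2 matches H1f2 alone.

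Among the genes that fell, Serpinb1a had the largest difference outside the islet genes. It encodes an inhibitor of neutrophil elastase and related proteases, with its probe on chromosome 13 at 32842926 to 32842960. It was at 179 and 177 CPM in the sums at 24 hours and at 307 and 380 CPM in those at 12 hours. All 24-hour regions (165 to 192 CPM, median 167) lay below all 12-hour regions (290 to 412 CPM, median 322). The log2 difference was -0.95 ± 0.18 (SE, adjusted p = 0.0186), and it lay between -1.12 and -0.76 over the omission of each sum. Against the shared control, it was 0.02 at 24 hours (adjusted p = 0.93) and 0.97 at 12 hours (adjusted p = 0.00093). At 24 hours Serpinb1a stood at 3.05 ± 0.40 times background and in control at 2.19 ± 0.12 times (SD, n = 6 and 7 regions). Every 24-hour region (2.70 times upward) was above every control region (up to 2.35 times) on that scale. Serpinb9, a related inhibitor of granzyme B, was singled out after its values were seen: 115 and 176 CPM at 24 hours and 169 and 318 CPM at 12 hours (-0.74 ± 0.19, SE, adjusted p = 0.0753).

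Hmga1, Dbi and Itprid2 also had 24-hour regions wholly below the 12-hour regions. Hmga1, a chromatin protein of growing cells whose probe also matches Hmga1b, was at 148 and 173 CPM in the sums at 24 hours and at 219 and 308 CPM at 12 hours (-0.72 ± 0.16, SE, adjusted p = 0.0307). Dbi, which binds acyl-CoA, was at 130 and 162 CPM at 24 hours and at 214 and 230 CPM at 12 hours (-0.60 ± 0.13, SE, adjusted p = 0.028). Itprid2, which binds the inositol trisphosphate receptor, was at 124 and 113 CPM at 24 hours and at 182 and 158 CPM at 12 hours (-0.52 ± 0.11, SE, adjusted p = 0.0307). Over the omission of each sum the difference of Itprid2 lay between -0.69 and -0.36. Without the 12-hour sum of array 2, Hmga1 had a difference of -0.41 (adjusted p = 0.58). Adamts9, a metalloproteinase of proteoglycans, had the smallest fall, at 110 and 120 CPM at 24 hours and 135 and 161 CPM at 12 hours (-0.37 ± 0.08, SE, adjusted p = 0.0314). Its regions overlapped, and without the 24-hour replicate 4 its adjusted p was 0.066.

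The remaining falls were those of islet hormone genes, and their size rested on 1 region. Ins2 was at 178 and 139 CPM in the sums at 24 hours and at 4896 and 334 CPM in those at 12 hours, so the high value lay on array 1. The 24-hour regions ran from 60.6 to 218 CPM (median 149) and the 12-hour regions from 68.9 to 15069 CPM (median 209). The highest was replicate 1, and the values of the other regions overlapped. The log2 differences of Ins2, Ins1 and Iapp were -4.02 ± 0.81, -2.98 ± 0.57 and -2.13 ± 0.46 (SE, adjusted p = 0.024, 0.0186 and 0.0307). Without the 12-hour replicate 1 they were -0.75, -0.99 and -0.38 (adjusted p = 0.65, 0.28 and 0.73). Without the 12-hour replicate 4 they kept their size, at -3.93, -2.79 and -2.06, but did not pass (adjusted p = 0.0984, 0.128 and 0.0984). The median over the 7 tested islet genes was -1.11 with that region and -0.12 without it.

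**Figure D3:**
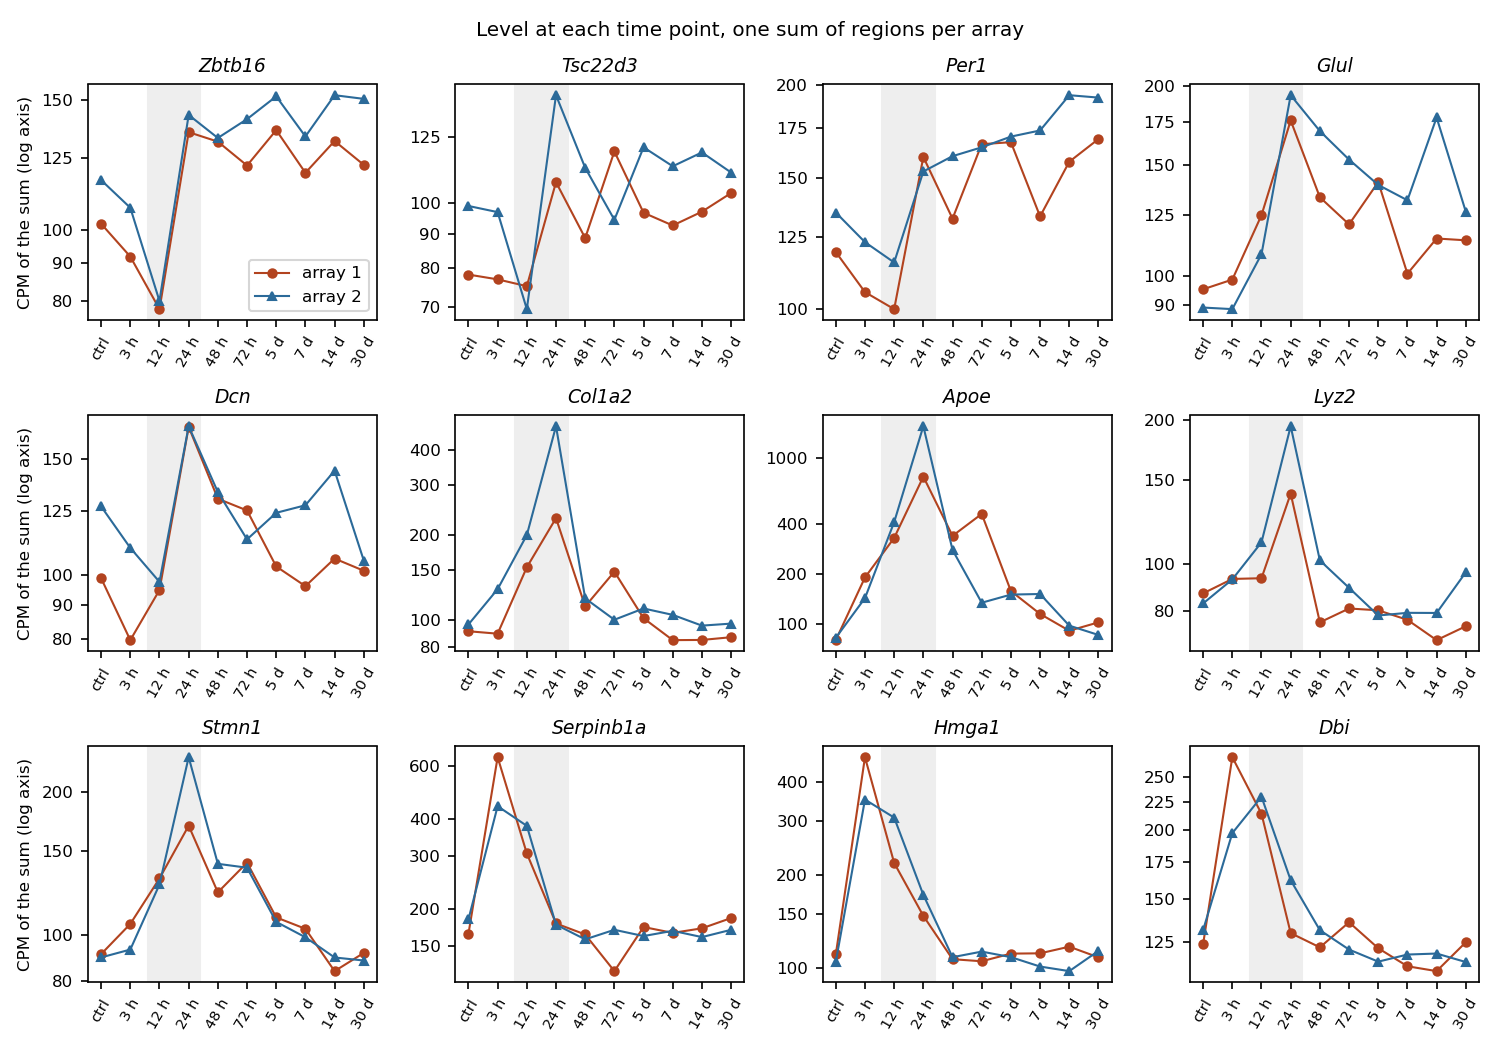
Level of 12 of the called genes in the control and at the 9 time points, in time order, as CPM of the sum of regions on a log axis, with circles for array 1 and triangles for array 2. The shaded band holds 12 and 24 hours. Apoe, Col1a2 and Lyz2 are at their highest at 24 hours on both arrays. Serpinb1a is at its highest at 3 hours, with 645 and 442 CPM on arrays 1 and 2.

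The course over the series places the interval. Serpinb1a was at 165 and 185 CPM in control, 645 and 442 CPM at 3 hours, 307 and 380 CPM at 12 hours, 179 and 177 CPM at 24 hours and 164 and 158 CPM at 48 hours. Apoe was at 79.9 and 82.5 CPM in control, 190 and 143 CPM at 3 hours, 330 and 410 CPM at 12 hours, 771 and 1551 CPM at 24 hours and 339 and 279 CPM at 48 hours. For Apoe the difference between 48 and 24 hours was -1.93 (adjusted p = 0.0047), and for Col1a2 -1.61 (adjusted p = 0.00052), in comparisons that share the 24-hour sums with those above. Dcn, Zbtb16, Tsc22d3 and Glul had differences of -0.34, -0.07, -0.33 and -0.29 in the same step, none of which passed (adjusted p = 0.058, 0.59, 0.1 and 0.18). The 3-hour group had 1 region on array 1 and 2 on array 2, and its sums are the least precise of those named here.

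The digestive enzyme genes, the main product of the acinar cell, were lower at 24 hours without passing the test. In the trypsinogen list all 5 tested members, and in the list of elastases, chymotrypsins and carboxypeptidases all 9, had a difference below 0, with medians of -0.68 and -0.70 against -0.00 over all genes. Under the scalings, the background subtraction and the omission of either region that stands apart, the first median lay between -0.72 and -0.61 and the second between -0.74 and -0.68. Single sums moved both far more: the first was between -1.83 (without the 24-hour sum of array 1) and -0.14 (without that of array 2), and the second between -1.67 (also without the 24-hour sum of array 1) and -0.11 (array 1 without its 12-hour sum). The edgeR test called 0 members of either list. At an unadjusted p under 0.05, 2 of 5 and 3 of 9 were lower, beside 3.24% of all genes. DESeq2 called 1 of each as lower, 1810009J06Rik and Cela1, beside 14 of all 2688 genes. Cela1, an elastase, was at 796 and 311 CPM in the sums at 24 hours and at 1566 and 1078 CPM in those at 12 hours. Every 24-hour region (217 to 866 CPM) was below every 12-hour region (922 to 1660 CPM), with a log2 difference of -1.28 ± 0.39 (SE, adjusted p = 0.186). Ctrb1, a chymotrypsinogen, was at 46336 and 19438 CPM at 24 hours and at 69055 and 60380 CPM at 12 hours (-1.0 ± 0.41, SE, adjusted p = 0.476), again with no overlap of regions.

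The spread between arrays was large for these genes. 1810009J06Rik, listed here with the trypsinogens and measured by a probe that also matches Gm2663, was at 1854 and 596 CPM in the sums at 24 hours and at 6549 and 1964 CPM at 12 hours (-1.79 ± 0.53, SE, adjusted p = 0.168). In control regions it stood at 1.32 times background, so both times lay far above control. Pnlip, pancreatic lipase, was at 1211 and 275 CPM at 24 hours and at 3288 and 826 CPM at 12 hours (-1.47 ± 0.61, SE, adjusted p = 0.476, and -0.18 without the 12-hour sum of array 1), against 32634 and 33144 CPM in control. The amylase probe named Amy2a1 matches the 5 genes Amy2a1 to Amy2a5, and was at 8480 and 3648 CPM at 24 hours and at 12635 and 7326 CPM at 12 hours (-0.73 ± 0.48, SE, adjusted p = 0.829). In the trypsinogen list 3 of the 5 tested probes match more than 1 gene, so their counts cannot be assigned to 1 gene. The lipase, amylase and ribonuclease list had a median of -0.38 over 8 genes, which turned to 0.047 when array 2 lost its 24-hour sum and to 0.058 when array 1 lost its 12-hour sum, and 2 of them, Clps and Rnase1, had a difference above 0. Of 10 zymogen granule genes tested 9 had a difference below 0, with a median of -0.26 (-0.64 to -0.07 over the omission of each sum). Spink1, the trypsin inhibitor stored with the enzymes, was at 725 and 349 CPM at 24 hours and at 1033 and 847 CPM at 12 hours (-0.84 ± 0.32, SE, adjusted p = 0.381).

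**Figure D4:**
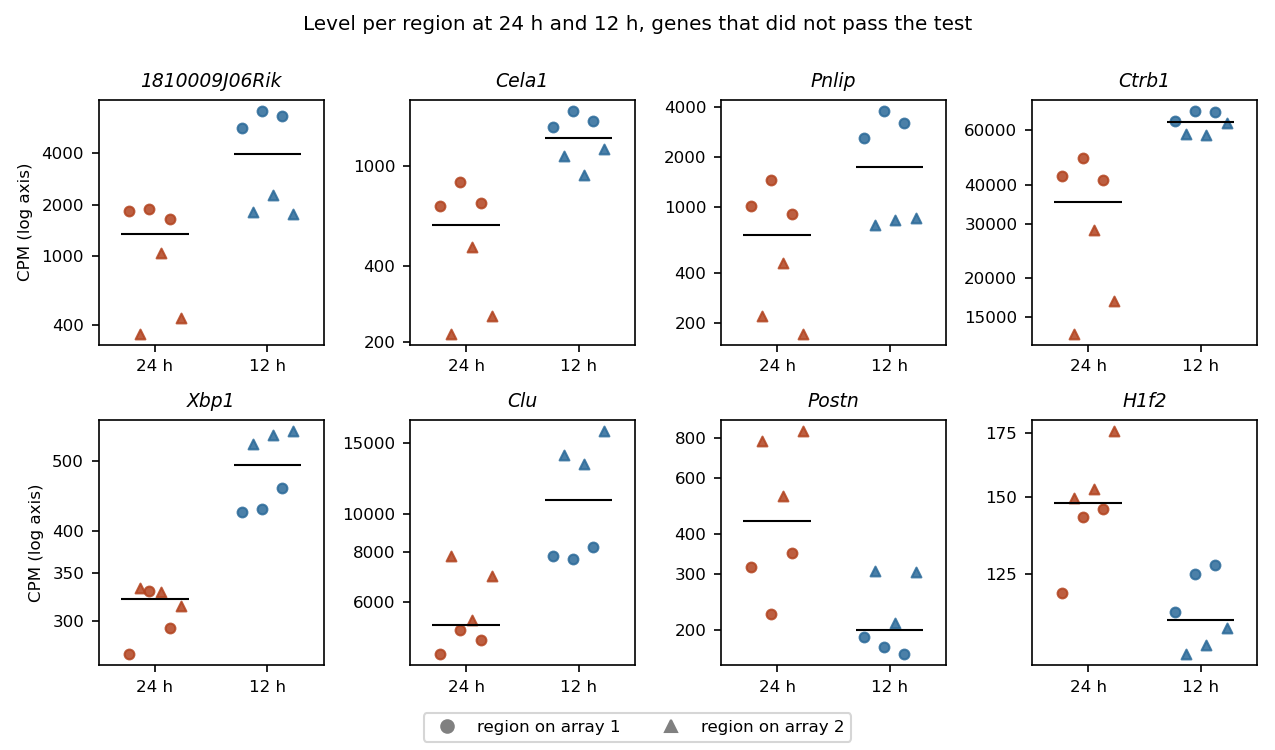
Level of 8 genes that did not pass the test in each region, as CPM on a log axis, with 24 hours left of 12 hours in each panel, circles for array 1, triangles for array 2 and bars for group medians. Cela1, Ctrb1 and Xbp1 have groups that do not overlap, with arrays that stand apart within a group.

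Among the regulators of acinar identity, 9 were tested and 0 passed, with a median of -0.16 (-0.38 to 0.10 over the omission of each sum). At an unadjusted p under 0.05, 1 was lower, beside 3.24% of all genes. Xbp1, a transcription factor of secretory capacity, was at 311 and 332 CPM in the sums at 24 hours and at 446 and 546 CPM at 12 hours. Its regions did not overlap, from 270 to 333 CPM at 24 hours and from 425 to 551 CPM at 12 hours (-0.62 ± 0.20, SE, adjusted p = 0.246). Bhlha15 (MIST1), which maintains the secretory state, had a difference of 0.37 that did not pass. The secretory machinery moved little: 18 endoplasmic reticulum chaperones and 20 genes of vesicle coats and transport had medians of 0.07 and -0.08, with 0 calls in either by edgeR or DESeq2.

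Genes of the duct-like state and of the response to injury did not pass between the times. Of 16 ductal and metaplasia genes the median was -0.13 (-0.46 to 0.10 over the omission of each sum), and 1, the mucin Muc1, had an unadjusted p under 0.05. Clu (clusterin), a chaperone of injured epithelium, was at 4969 and 6970 CPM in the sums at 24 hours, at 8063 and 14560 CPM at 12 hours and at 324 and 331 CPM in control, far above control at both times. Its difference between the times was -0.93 ± 0.47 (SE, adjusted p = 0.652), and -0.30 without the 12-hour sum of array 2. Krt8 and Krt18, the paired keratins of simple epithelia, had -0.65 ± 0.36 and -0.56 ± 0.30 (SE, adjusted p = 0.718 and 0.682), which were -0.093 and -0.056 without that sum, while Krt19, the keratin of ducts, had -0.09. The 7 regenerating and trefoil genes, secreted proteins induced in pancreatitis, all had a difference below 0 (median -0.32, and -0.64 to -0.086 over the omission of each sum), led by Reg2 at -0.92 ± 0.64 (SE, adjusted p = 0.849). Of 12 stress regulators the median was -0.26, and Txn1 (thioredoxin) had -0.50 ± 0.17 (SE, adjusted p = 0.267). Of the 12, 1 was higher and 3 were lower at an unadjusted p under 0.05, beside 4.95% and 3.24% of all genes.

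**Figure D5:**
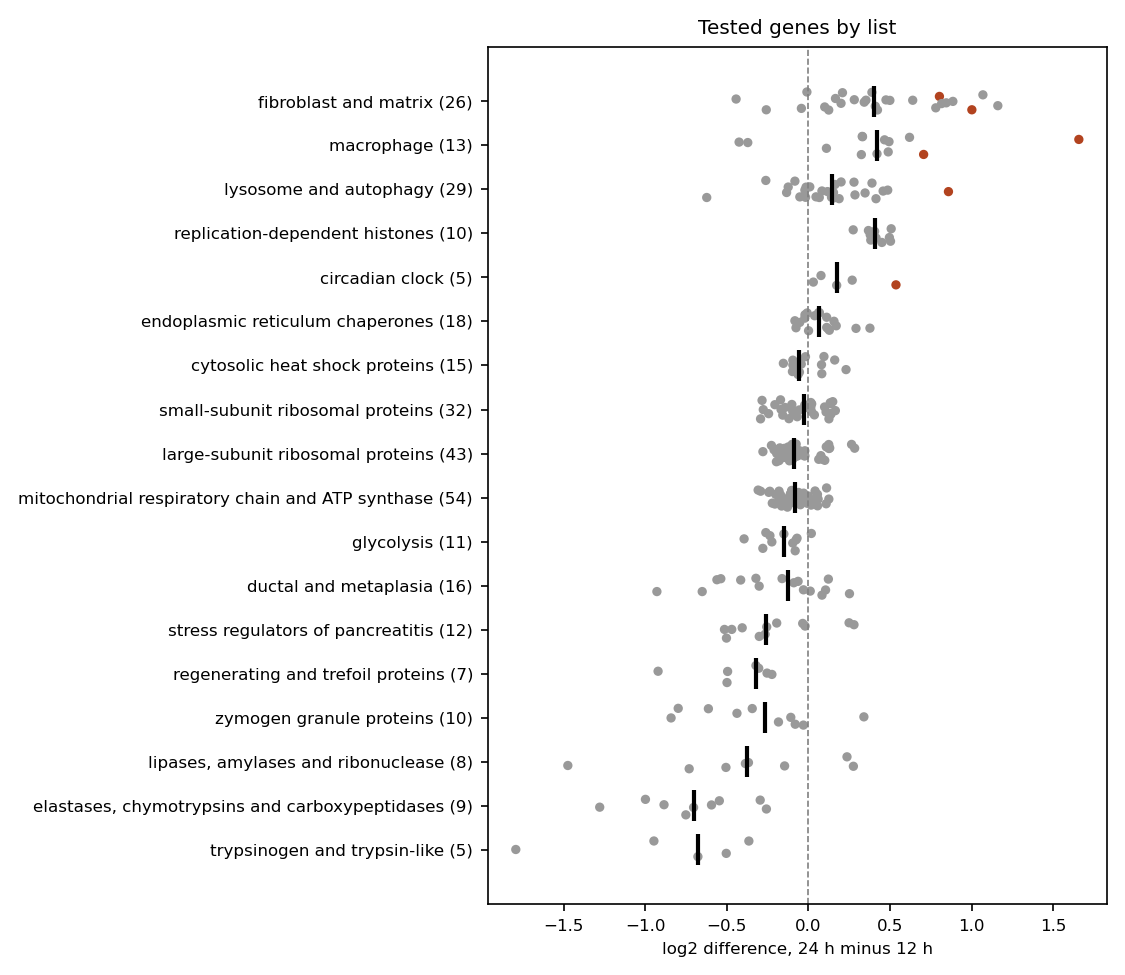
Log2 difference (24 hours minus 12 hours) of each tested gene in 18 lists, one list a line with its number of tested genes in parentheses. Points in red passed the test, grey points did not, black bars are list medians and the dashed line is the median of all genes. The medians run from -0.70 for elastases, chymotrypsins and carboxypeptidases to 0.42 for macrophage genes.

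Genes of energy metabolism and protein synthesis had medians near that of all genes with every sum included. Of 11 glycolysis genes 0 passed and all but Pdk1 had a difference below 0 (median -0.15). Of the 11, 3 were lower at an unadjusted p under 0.05, beside 3.24% of all genes. Aldoa, an aldolase, was at 174 and 202 CPM in the sums at 24 hours and at 232 and 262 CPM at 12 hours, with no overlap of regions (-0.39 ± 0.15, SE, adjusted p = 0.382). The 54 genes of the respiratory chain and ATP synthase had a median of -0.08, and the 32 and 43 proteins of the small and large ribosomal subunits had -0.03 and -0.09, all with 0 calls by edgeR or DESeq2. At an unadjusted p under 0.05 there were 3 lower among the 54 and 0 among the ribosomal genes. The ribosomal medians lay between -0.08 and 0.01 for the small subunit and between -0.15 and -0.06 for the large one over the scalings and background subtraction. They were less steady against single sums: when array 2 lost its 24-hour sum or its 12-hour sum, in that order, the small-subunit median was -0.29 and 0.32, and the large-subunit median -0.28 and 0.21. The glycolysis median was -0.35 and 0.0034 under the same omissions.

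Nuclei counted per region were 966 to 1678 at 24 hours (median 1440.5) and 1275 to 1623 at 12 hours (median 1535). The mean differed by -156 nuclei, which did not pass a 2-sided exact permutation test (p = 0.262, or p = 0.175 permuting within arrays), and these p-values are too small if regions share a core. On array 1 the difference was -331 and on array 2 it was 18.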

How the data were processed

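The authors deposited a table of 9780 targets by 57 regions in expected counts, the deduplicated counts of probe barcodes, of which fractional values were rounded here. The deposited region summary holds counts of reads and nuclei made with GeoMx NGS Pipeline 2.3.3.10, per the file headers. It also gives, as the authors deposited them, sequencing saturation in percent (95.2 to 96.3 over the 12 regions) and a limit of quantitation as a signal in counts. Filters applied by the authors before deposit are not stated. Raw reads per region were 42321899 to 92405767 at 24 hours and 51982413 to 118557381 at 12 hours. Deduplicated counts limit counting error, and regions were joined to the labels by array and region number with 0 columns unmatched.

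Counts were added by time point and array (20 sums), and a gene was kept where 3 or more of the 57 regions exceeded 2 times the negative-probe value (2688 genes). They were fitted with edgeR 4.0.16 in R 4.3.3 (TMM, quasi-likelihood, group and array as terms, 9 residual degrees of freedom, common dispersion 0.0122). A call is an adjusted p under 0.05 (Benjamini-Hochberg over all genes tested), and SEs were taken as the size of the log2 difference over the root of the F statistic. Alternatives were 3 other scalings, background subtraction, 3 other filters, DESeq2 1.42.0, other units of replication (limma 3.58.1 for 1 of them) and omitted sums or regions. On simulated counts of the 2688 genes with known changes, 74 of 100 genes changed by 0.5 on the log2 scale and 95 of 100 changed by 1 were recovered, beside 9 unchanged genes called. These counts were drawn for the sums from the fitted model and its own dispersions, without single regions and with no separate background. The shares are thus a check of the fit and do not give the power of this design.

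The comparison, the 47 gene lists and the tests were chosen with earlier results of these data known. The rule named every called gene if at most 30 passed, up to 4 called members of each list, and the 3 members of smallest p where a list had none. Genes named beyond it, chosen after their values were seen, are the uncalled members of lists with a call, together with Serpinb9, Krt8, Krt19, Bhlha15, Clps, Rnase1 and Pdk1. The omission of both regions that stand apart, a robust fit and the list of glucocorticoid-responsive genes were added after seeing the data. Replicate numbers are shared between the groups, but after removing group and array their regions correlated at -0.10 to 0.18, so they were not taken as pairs.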

Additional observations from a re-analysis of the deposited data

Results flagged for a closer look

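The called genes, the nuclei and the targets above 2 times background at each time gave 62 groups of 6 regions. In 13 of them, none for the targets, the highest or lowest region lay farther from its nearest neighbour than 0.625 of the group's range, Dixon's critical value. Chance gives that in about 1 group in 20, and values of different genes in a region are not independent.

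At 24 hours, replicate 4 was the highest region for 13 of the 21 genes that rose, and for 7 of them it lay past that value: the gap was 0.74 of the range for Fcgr2b, 0.721 for Lyz2, 0.819 for Fcgrt, 0.683 for Cd300ld3, 0.79 for Ctsb, 0.811 for Itm2b and 0.772 for Apoe. Apoe was at 2462 CPM there, and at 736 to 1129 CPM in the other 24-hour regions. Itm2b was at 220 CPM there and at 148 to 162 CPM in the others. Per1 was highest in the 24-hour replicate 1, at 172 CPM beside 145 to 153 CPM in the others (gap 0.696).

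At 12 hours, replicate 1 was the highest region for Ins2 (gap 0.958), Iapp (0.94) and Ins1 (0.938). Iapp was at 1466 CPM there and at 44.6 to 130 CPM in the other 12-hour regions. The same region had the fewest nuclei of its group, 1275 beside 1514 to 1623 (gap 0.687). Stab1 was lowest in the 12-hour replicate 2, at 98.6 CPM beside 119 to 131 CPM in the others (gap 0.629).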

How the results depend on the processing

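All 29 called genes kept their sign in every alternative in which they were tested, and Zbtb16 kept its call in all 30. The number of calls moved more. It was 11 by total counts (7 higher, 4 lower, 8 of them among the 29), 3 scaled by negative probes (3 and 0: Cilp, Dcn and Zbtb16), and 1 with background subtracted (1 and 0: Zbtb16). DESeq2 gave 47 (33 and 14, all 29 among them). Leaving out both regions that stand apart gave 17 (12 and 5, 16 among the 29), and a robust fit 21, of them 5 lower. With the 12 regions as samples there were 250 (148 and 102), with the sum as a random block 425 (227 and 198), and with the replicate block 212 (121 and 91); 26 of the 29 were among each, and these p-values are too small if regions share a core. Leaving out 1 sum or region gave 5 to 70 calls, 2 to 59 higher and 1 to 11 lower, and where a sum was left out the lone sum was assumed to vary like the other groups. Filters, 75th percentile scaling and a fit of the 4 sums alone gave 26 to 35 calls. The filters and 75th percentile scaling called 22 to 28 of the 29. The fit of the 4 sums called 18 of the 29 among its 34. The cause of these changes was not tested. The difference in nuclei was -156, and on array 2 alone it turned to 18. Scaling moved the median of all genes by at most 0.04 on the log2 scale. Most genes lie near background, where small differences cannot be detected, and 2 sums a group limit every p-value.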
